A study of Homo sapiens with 44 samples.

Results

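The 10 genes described here are the fatty acid elongases ELOVL1 to ELOVL7, the stearoyl-CoA desaturase SCD, and the fatty acid desaturases FADS1 and FADS2. They were chosen by name, with their levels in the 12 groups of libraries already known, and are 10 of the 58721 gene identifiers in each deposited count table. The libraries come from A549, a human lung adenocarcinoma cell line, and from isogenic lines in which p300, the histone acetyltransferase encoded by EP300, is truncated at its TAZ2 domain, a protein-binding domain. The unedited parent is labelled WT and the 3 edited lines are labelled het1, het2 and homo. Polyadenylated RNA was counted in 3 libraries of each line in culture, in 4 xenograft tumours of each line at day 30, and in 4 tumours each of WT and het1 given DMSO, the vehicle, or SAHA for 4 weeks. SAHA (vorinostat) inhibits histone deacetylases. All groups share the A549 background, and homo and each het line is 1 line, so line and genotype cannot be told apart. The labels give the host of the tumours no name and do not say whether libraries came from separate cultures or animals, so the spread between libraries may be technical in part.

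Elongases are membrane enzymes of the endoplasmic reticulum. Each catalyses the condensing step, the first and rate-limiting reaction of the cycle that lengthens an acyl-CoA chain, and the chain then passes through a ketoreductase, a dehydratase and an enoyl reductase that all elongases share. The members differ in the chains they accept. ELOVL6 lengthens palmitate to stearate, ELOVL1, ELOVL3 and ELOVL7 act on saturated and monounsaturated long chains, ELOVL2 and ELOVL5 act on polyunsaturated chains, and ELOVL4 makes the very longest chains, known from retina, skin, brain and testis. Desaturases insert double bonds with electrons passed on by cytochrome b5. SCD makes oleate from stearate, and FADS2 and FADS1 act in turn on the essential fatty acids. SCD, FADS1, FADS2, ELOVL5 and ELOVL6 are known targets of SREBP-1, the sterol-regulated activator of lipogenesis encoded by SREBF1.

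In GENCODE release 29 on GRCh38 the members lie at separate places except for the FADS pair. The elongases of saturated chains are ELOVL1 (ENSG00000066322) at chr1:43363397-43368074 on the minus strand, ELOVL3 (ENSG00000119915) at chr10:102226328-102229589 on the plus strand, ELOVL6 (ENSG00000170522) at chr4:110045846-110199199 on the minus strand and ELOVL7 (ENSG00000164181) at chr5:60751791-60844389 on the minus strand. The others are ELOVL2 (ENSG00000197977) at chr6:10980759-11044314 on the minus strand, ELOVL4 (ENSG00000118402) at chr6:79914812-79947580 on the minus strand and ELOVL5 (ENSG00000012660) at chr6:53267398-53349179 on the minus strand. The desaturases are SCD (ENSG00000099194) at chr10:100347124-100364834 on the plus strand, FADS1 (ENSG00000149485) at chr11:61799625-61829318 on the minus strand and FADS2 (ENSG00000134824) at chr11:61792980-61867354 on the plus strand. FADS1 and FADS2 overlap on opposite strands and share 490 exon bases, which is 4.79% of the exon bases of FADS1 and 4.44% of those of FADS2. The library kit is stranded, but no source used here gives the strand setting of the counting, and reads from the shared bases may have been counted for either gene.

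Levels are CPM, that is, counts divided by the TMM-scaled library size of their table and multiplied by 1e6. The cultures had 61168373 to 93444327 counts each, the day 30 tumours 63243289 to 99593214 and the treated tumours 61937591 to 82475298, and intervals from counting would cover counting error only. EP300 itself had 115 ± 3.84, 185 ± 2.87, 153 ± 4.05 and 190.5 ± 2.38 CPM (SD, n = 3) in WT, het1, het2 and homo cultures; gene counts do not show the truncation. The epithelial keratins KRT8 and KRT18 had at least 20919 counts in every library. The other epithelial markers, EPCAM and CDH1, ran over all libraries from 66 to 15179 and from 96 to 35530 counts. The median summed level of the 4 epithelial markers differed between lines in culture. It was 5357 CPM in WT, 1927 in het1, 1719 in het2 and 739 in homo. Markers of other cell types were present and differed between groups, and their part in the results below was not tested.

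Of the 6 adipocyte markers, ADIPOQ, LEP and FABP4 reached at most 1, 5 and 8 counts in any library, and PLIN1, CIDEC and CFD at most 180, 1719 and 11720. Of the 7 keratinocyte and sebaceous markers, KRT1, LOR and AWAT2 reached at most 1, 5 and 6 counts, and KRT5, FLG, KRT14 and KRT10 at most 358, 1196, 1500 and 4484. FLG, which encodes filaggrin, was higher in edited cultures, with log2 fold changes of 2.91, 2.80 and 4.05 in het1, het2 and homo, and in their day 30 tumours, with 1.96, 1.74 and 3.06. The basal keratin KRT14 was lower in the same tumours, with -4.24 in het1 and -3.53 in het2, and lower also in homo. The summed level of the 6 fibroblast markers was higher in edited cultures: its median was 6.31 CPM in WT, 39.7 in het1, 34.4 in het2 and 55.6 in homo. COL1A1 had log2 fold changes of 1.33, 2.48 and 3.22 there and COL3A1 of 6.21, 2.22 and 2.14, while COL1A2 had at most 5 counts in any culture. Fibroblast sums in day 30 tumours were 216 to 359.6 CPM in WT, 102 to 283 in het1, 102 to 346 in het2 and 313 to 479.7 in homo. The 6 myeloid markers summed to 30.3 to 44.1 CPM in WT day 30 tumours and less in the edited lines. The sums were 7.15 to 10.6 in het1, 16.1 to 22.0 in het2 and 11.8 to 14.5 in homo. Over all libraries LYZ reached 66.4 CPM. ITGAM, CSF1R, PTPRC, AIF1 and CD68 reached at most 4.26, 1.98, 1.12, 0.709 and 0.181 CPM. The 5 endothelial markers had median sums of 2.29 CPM in WT, 7.78 in het2 and 4.04 in homo, and every het1 tumour was below every WT tumour.

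Levels per kilobase of exon divide by the union of the exons of all annotated transcripts. This was 10230 bases over 21 transcripts for FADS1, 11026 over 15 for FADS2 and 5362 over 1 for SCD. The order of genes by this level depends on that length. Compared in this way, SCD stood first among the 10 genes in all 12 groups. In WT cultures its mean was 544 CPM per kb, against 63.6 for ELOVL5, 62.4 for FADS1, 54.7 for FADS2 and 34.7 for ELOVL1. The others were lower, from 10.8 for ELOVL2 down to 0.684 for ELOVL4 and 0.338 for ELOVL3. Among the 7 elongases, ELOVL5, the elongase of polyunsaturated chains, held the largest share of the summed level per kb in every group, from 38.9% in homo cultures to 61.4% in het2 cultures. ELOVL1 was next in every group, at 11.7% to 34.1%. The ELOVL4 share was small in WT and larger in every edited line. It was 0.532% in WT cultures and 0.0962% in WT day 30 tumours, against 9.12% and 9.39% in the same groups of homo.

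**Figure D1:**
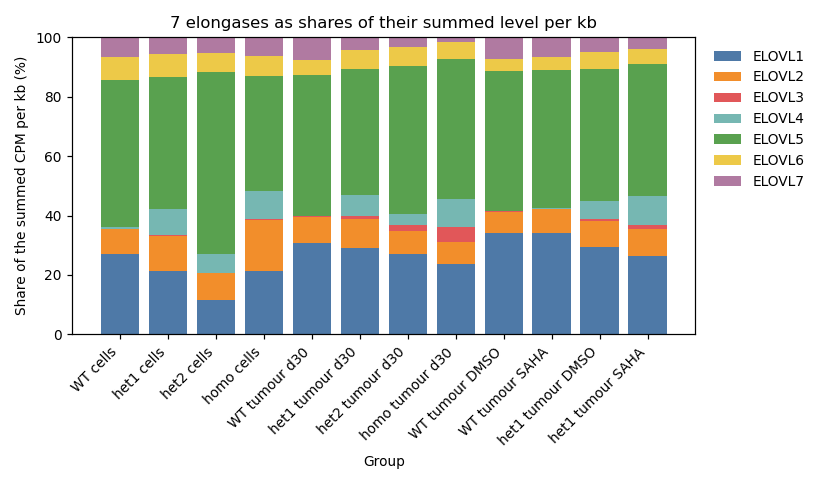
Stacked bars give each elongase as a percentage of the summed CPM per kb of all 7 elongases, from the group means of 3 libraries (cells) or 4 libraries (tumours), with d30 for day 30. ELOVL5 is the largest segment in all 12 bars, and the ELOVL4 segment is 0.532% or less in the 4 WT bars and 3.71% or more in the 8 bars of edited lines.

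ELOVL4, the elongase of the longest chains, was near the bottom of the range in WT and well above it in every edited line. In culture the 3 WT libraries had 2.06, 2.02 and 2.16 CPM. The het1 libraries had 26.9, 28.0 and 26.4, the het2 libraries 30.1, 31.4 and 32.6 and the homo libraries 34.9, 32.0 and 32.3 CPM. Every edited library was above every WT library, het1 was below the other edited lines, and het2 and homo overlapped. The log2 fold changes (log2FC, with a standard error, SE) against WT were 3.70 ± 0.067 in het1, 3.91 ± 0.066 in het2 and 3.99 ± 0.067 in homo, or 13.0-fold, 15.0-fold and 15.8-fold. Each SE was derived from the test, as the size of the log2FC divided by the square root of edgeR's F statistic. The fibroblast sums and FLG, given above, were also higher in the 3 edited cultures than in WT. FLG is 1 of the 7 keratinocyte and sebaceous markers, and their summed level was lower in the edited cultures. Its median was 44.8 CPM in WT, 33.0 in het1, 32.2 in het2 and 39.0 in homo. The part of these markers in the ELOVL4 result was not tested.

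In day 30 tumours ELOVL4 was below 1 CPM in WT and at 8.10 CPM or more in the edited lines. The 4 WT tumours had 0.193, 0.236, 0.128 and 0.395 CPM, from 16, 19, 11 and 37 counts. The het1 tumours had 18.6, 22.3, 15.7 and 19.5, the het2 tumours 10.8, 8.10, 8.63 and 10.6 and the homo tumours 35.1, 21.4, 30.3 and 23.1 CPM. No edited tumour came near a WT tumour, het2 lay below het1 and homo without overlap, and het1 and homo overlapped. The log2FC against WT were 6.29 ± 0.25, 5.29 ± 0.26 and 6.82 ± 0.26. They rest on the low WT counts: without WT tumour replicate 4, the highest of the 4, they were 6.68, 5.68 and 7.20. Over all omissions of 1 library they ran from 6.09 to 6.68, from 5.08 to 5.68 and from 6.61 to 7.20. In bulk tumours, fewer cells of a type and less RNA per cell cannot be told apart.

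The ELOVL4 promoter is printed because the gene had the widest range of the 10. The sequence spans chr6:79947504-79947803, minus strand, in RefSeq on GRCh38.p14, from before to just after the annotated start. All 10 members matched the RefSeq promoter table, with 11 windows of 300 bases. Capitals mark matches, on either strand, to 5 motifs: CACGTG (an E-box), TCACNCCAC (a sterol regulatory element core), CCAAT (the motif of that name), TATAAA (a core promoter box) and TGACGTCA (a cyclic AMP response element). No match overlapped another in the windows printed.
ELOVL4: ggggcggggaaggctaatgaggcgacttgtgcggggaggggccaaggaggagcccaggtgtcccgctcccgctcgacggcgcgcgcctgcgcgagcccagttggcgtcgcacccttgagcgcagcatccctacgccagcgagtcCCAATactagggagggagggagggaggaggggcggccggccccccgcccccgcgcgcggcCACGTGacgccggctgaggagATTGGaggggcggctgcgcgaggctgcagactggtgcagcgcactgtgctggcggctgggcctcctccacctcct
The ELOVL4 window held 1 E-box and 2 CCAAT boxes. Among 35116 promoter windows, 7.26% held CACGTG, 34.6% CCAAT, 1.85% TGACGTCA, 1.13% TCACNCCAC and 11.5% TATAAA. TCACNCCAC and TATAAA were in none of the members' windows, which says only that these letters are absent there. A match is a description of the sequence and not a measured site.

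ELOVL3, known from brown fat and sebaceous glands, was low everywhere in culture and separated the 4 lines in day 30 tumours. In culture the WT libraries had 0.387, 0.620 and 0.383 CPM, the het1 libraries 0.424, 0.571 and 0.686, the het2 libraries 0.0956, 0.142 and 0.123 and the homo libraries 0.790, 0.657 and 0.671. Het1 overlapped both WT and homo, and het2 was below all of them with 8 to 11 counts. As day 30 tumours the WT libraries had 0.421, 0.186, 0.302 and 0.256 CPM and the het1 libraries 0.802, 0.842, 1.52 and 1.33. The het2 tumours had 1.62, 2.93, 2.76 and 3.09 and the homo tumours 9.12, 4.54, 7.73 and 5.34 CPM. The 4 groups did not overlap and stood in the order WT, het1, het2, homo. The log2FC against WT were 1.95 ± 0.32, 3.15 ± 0.31 and 4.51 ± 0.31 in tumours, and 0.27 ± 0.29, -1.93 ± 0.35 and 0.61 ± 0.29 in culture. For het2 the direction was therefore lower in culture and higher in tumours; the difference between those fold changes was not tested.

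Summed levels of the 6 adipocyte markers moved in part with ELOVL3 in day 30 tumours. They ran from 50.4 to 87.2 CPM in WT, 74.6 to 88.8 in het1, 128 to 159 in het2 and 69.3 to 123 in homo. Most of this was CFD, the complement factor adipsin, at 44.7, 66.5, 124 and 90.3 CPM in the same order, which cultures also expressed at 1.38 to 6.01 CPM. The next was CIDEC, a lipid droplet protein, at 17.0, 13.2, 13.9 and 2.06 CPM. PLIN1, the lipid droplet protein perilipin, was higher in het2 and homo, with log2FC of 1.38 ± 0.29 and 1.74 ± 0.29, and was -0.39 ± 0.31 in het1, where it was not called. ADIPOQ, LEP and FABP4 stayed at the few counts given above. The part of these markers in the ELOVL3 result was not tested. The ELOVL3 promoter, chr10:102226049-102226348, plus strand, is printed because it is the gene with the second widest range, and held 2 CCAAT boxes and no other match.
ELOVL3: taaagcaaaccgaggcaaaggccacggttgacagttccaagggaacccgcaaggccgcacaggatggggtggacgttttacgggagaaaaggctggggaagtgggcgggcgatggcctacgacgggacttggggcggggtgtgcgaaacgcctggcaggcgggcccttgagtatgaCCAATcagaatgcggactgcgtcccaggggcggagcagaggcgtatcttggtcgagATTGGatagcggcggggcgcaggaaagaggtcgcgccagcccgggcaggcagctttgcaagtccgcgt

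ELOVL7 ran the opposite way to ELOVL3 in day 30 tumours. The WT tumours had 25.5, 32.2, 27.0 and 27.6 CPM and the het1 tumours 19.2, 18.8, 18.2 and 17.3. The het2 tumours had 13.6, 11.9, 15.9 and 11.3 and the homo tumours 7.61, 8.39, 7.39 and 7.81 CPM. The 4 groups were apart, in the order WT, het1, het2, homo from high to low. Their log2FC against WT were -0.61 ± 0.091, -1.09 ± 0.092 and -1.85 ± 0.096. In culture the lines were closer: the means were 39.5 ± 1.17 CPM in WT, 26.2 ± 0.841 in het1, 38.7 ± 1.42 in het2 and 34.4 ± 1.06 in homo (SD, n = 3). WT and het2 cultures overlapped, and het1 was the lowest.

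**Figure D2:**
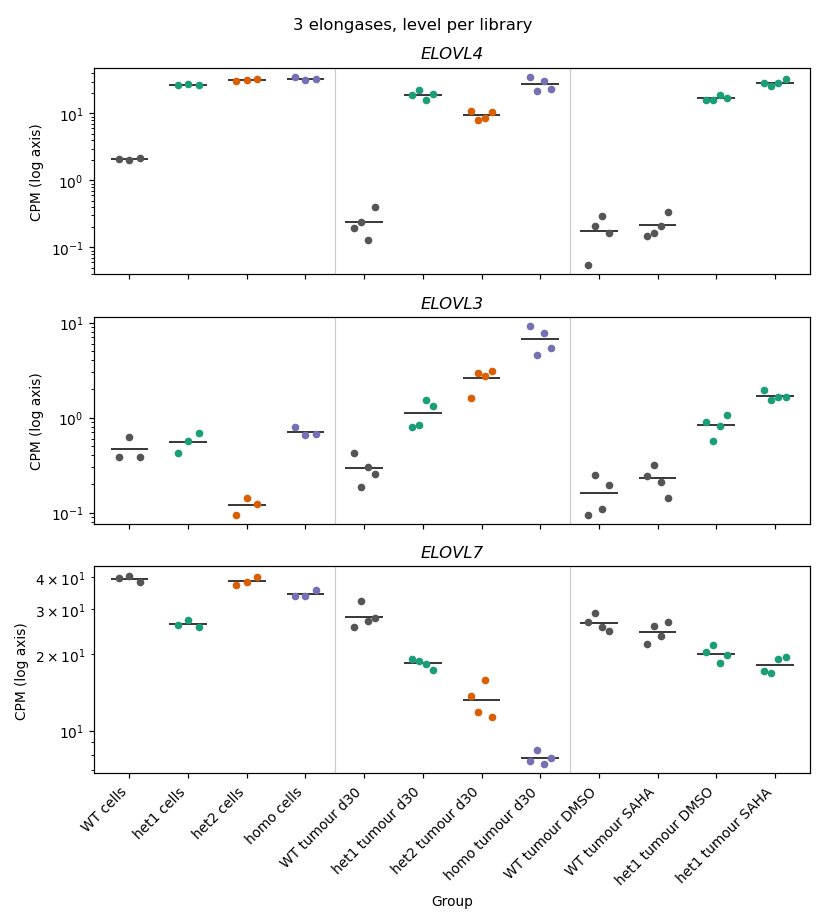
Each point is 1 library and each bar the group mean, in CPM on a log axis, for ELOVL4, ELOVL3 and ELOVL7 in cells, day 30 (d30) tumours and treated tumours, scaled separately in the 3 sections. In ELOVL4 the WT points lie below all points of edited lines in each section, and in day 30 tumours ELOVL3 steps up and ELOVL7 steps down from WT to homo without overlap.

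The elongases of wider use spanned narrower ranges between lines. ELOVL1 was highest in WT cultures at 86.9 ± 4.30 CPM, against 53.6 ± 0.585 in het1, 47.7 ± 1.05 in het2 and 63.3 ± 0.628 in homo (SD, n = 3), with no overlap between any of the 4. Neighbouring lines overlapped in day 30 tumours, between 53.9 and 68.8 CPM over all 16 libraries, and the log2FC lay between -0.14 and 0.086. The het2 tumours, at most 59.7 CPM, were all below the WT tumours, at least 60.3. All het2 and homo tumours were below all het1 tumours. ELOVL2, which leads towards docosahexaenoic acid, was highest in homo cultures at 82.7 ± 3.03 CPM against 43.3 ± 0.679 in WT, and all 4 lines were apart in culture. Among day 30 tumours het1, at 35.4 ± 1.56 CPM (SD, n = 4), was above the other lines, which overlapped.

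ELOVL5 split the edited lines in culture. It had 238, 241 and 249 CPM in WT, 379, 383 and 380.4 in het2, 168, 177 and 161 in het1 and 174, 173 and 183 in homo. Het2 was above WT and het1 and homo below it, with het1 and homo overlapping. As day 30 tumours, WT, het1 and het2 overlapped between 142 and 173 CPM, and homo had 175, 171, 169.7 and 175, above WT and overlapping het2. ELOVL6, the elongase of de novo lipogenesis, stood below WT in culture and above it in day 30 tumours in het1 and homo, and above it in both in het2. Its log2FC in culture were -0.37 ± 0.037, 0.077 ± 0.037 and -0.31 ± 0.037 in het1, het2 and homo, and in day 30 tumours 0.48 ± 0.077, 0.38 ± 0.077 and 0.38 ± 0.077. The WT tumours had 29.7, 30.2, 30.8 and 30.0 CPM and the 12 edited tumours were all higher, from 33.1 to 46.5 CPM.

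Among the desaturases, SCD was highest in het2 cultures. The WT cultures had 2669.8, 3134 and 2942 CPM and the het1 cultures 2955, 2945 and 2851. The het2 cultures had 6769.7, 6758 and 6637 and the homo cultures 4332, 4182 and 4198 CPM. Het1 and WT overlapped, and homo and het2 were each apart from the rest. The log2FC were 0.00075 ± 0.041, 1.21 ± 0.041 and 0.54 ± 0.041. At day 30 the WT tumours had 1001, 903, 922 and 939 CPM and the het1 libraries 746, 792, 733 and 889. The het2 tumours had 974, 862, 954 and 993 and the homo tumours 1289, 1332, 1160.1 and 1292 CPM. Homo was above all other lines. Het1 was below WT and homo, and het2 overlapped both WT and het1.

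FADS1 had the same order of lines as SCD in culture except for het1, which was below WT. The WT cultures had 607, 666 and 641 CPM and the het1 cultures 466, 466 and 451. The het2 cultures had 1215, 1235 and 1192 and the homo cultures 818, 758 and 777, and all 4 lines were apart. FADS2 had 591, 633 and 584 CPM in WT, 361, 358 and 368 in het1, 889, 889.7 and 852 in het2 and 593, 569 and 552 in homo. Here WT and homo overlapped. In day 30 tumours each neighbouring pair of lines in the order of means overlapped for both genes. Lines further apart in that order did not all overlap. For FADS1 every homo tumour, at 499 CPM or more, was above every WT tumour, at 422 to 443, and every het1 tumour. The log2FC of FADS1 in homo against WT was 0.35 ± 0.086 and was called. FADS1 ran from 342 to 600.1 CPM and FADS2 from 215 to 383, each with its lowest library in het1. One het1 tumour, replicate 4, had 353 CPM of FADS2 against 215, 231 and 247 in the other het1 tumours, and the same tumour was the highest of the 4 for FADS1. With all 4 het1 tumours the log2FC of FADS2 against WT was -0.23 ± 0.12 and that of FADS1 -0.12 ± 0.086, and without replicate 4 they were -0.40 and -0.23 and both were called lower.

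**Figure D3:**
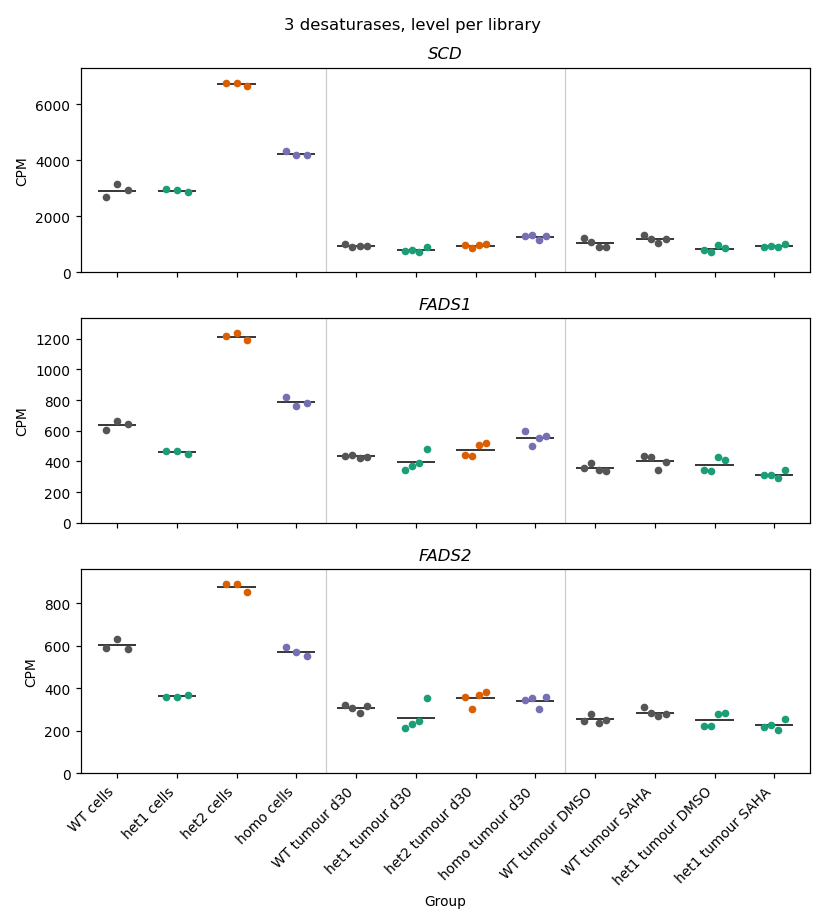
Each point is 1 library and each bar the group mean, in CPM on linear axes from 0, for SCD, FADS1 and FADS2 in cells, day 30 (d30) tumours and treated tumours, scaled separately in the 3 sections. The 3 het2 cultures are the highest points in all 3 panels, with SCD at 6637 to 6769.7 CPM.

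The 3 desaturases varied together over the 12 group means with all 44 libraries scaled jointly. On log2(CPM + 0.5), Pearson's r was 0.97 between FADS1 and FADS2, 0.90 between SCD and FADS2 and 0.86 between SCD and FADS1. These are descriptions over 12 groups that share lines and libraries, and FADS1 and FADS2 share exon bases. Some elongases were nearly as close, so this was not particular to the desaturases. ELOVL5 had r = 0.85 with FADS2 and 0.83 with FADS1. ELOVL6 had 0.81 with FADS2, and ELOVL2 had 0.81 with SCD. ELOVL1 and ELOVL3 had a negative r with all 3 desaturases. ELOVL3 and ELOVL7 had r = -0.92. The promoters of the desaturases are printed because the 3 genes varied together. Their windows are chr10:100346983-100347282, plus strand, for SCD; chr11:61816954-61817253, minus strand, for FADS1; and chr11:61816154-61816453, plus strand, the second of the RefSeq windows of FADS2.
SCD: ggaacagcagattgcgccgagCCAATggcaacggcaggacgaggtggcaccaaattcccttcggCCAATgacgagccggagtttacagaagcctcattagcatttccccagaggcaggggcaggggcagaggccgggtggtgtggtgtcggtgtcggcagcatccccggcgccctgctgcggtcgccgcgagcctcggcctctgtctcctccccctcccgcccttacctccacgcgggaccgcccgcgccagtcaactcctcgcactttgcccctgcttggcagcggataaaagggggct
FADS1: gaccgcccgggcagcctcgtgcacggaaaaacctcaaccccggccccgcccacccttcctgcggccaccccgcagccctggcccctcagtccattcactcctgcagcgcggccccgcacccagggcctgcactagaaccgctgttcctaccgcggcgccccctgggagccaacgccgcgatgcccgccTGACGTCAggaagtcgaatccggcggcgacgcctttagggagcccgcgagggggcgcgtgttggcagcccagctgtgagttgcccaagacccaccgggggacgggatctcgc
FADS2: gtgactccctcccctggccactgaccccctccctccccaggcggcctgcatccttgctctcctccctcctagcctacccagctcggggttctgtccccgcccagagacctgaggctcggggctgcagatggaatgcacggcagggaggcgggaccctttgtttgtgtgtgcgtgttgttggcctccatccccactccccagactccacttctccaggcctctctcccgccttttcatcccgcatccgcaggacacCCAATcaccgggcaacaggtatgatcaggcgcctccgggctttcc
The SCD window held 2 CCAAT boxes, the FADS1 window 1 cyclic AMP response element and the FADS2 window 1 CCAAT box. No motif of the 5 was in all 3 windows.

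The members' calls are given here as a description, since their levels in these groups were known when they were chosen. A call is a Benjamini-Hochberg adjusted p under 0.05 in edgeR's quasi-likelihood test over all genes of the table. In culture, 2 members were called higher and 6 lower in het1, where 32% of the 21704 genes tested were called higher and 30.8% lower. The counts were 6 and 2 in het2, beside 35.1% and 33.3% of all genes, and 4 and 5 in homo, beside 35.4% and 35.1%. In day 30 tumours, of 22533 genes, het1 had 4 members higher and 2 lower beside 26.8% and 24.8% of all genes. Het2 had 3 and 2 beside 24.4% and 24.8%, and homo 6 and 2 beside 27.1% and 27.7%. All 10 members passed the filter on low counts in each table. The members' median log2FC were -0.42, 0.48 and 0.11 in culture, where all genes had 0.025, 0.017 and 0.0054, and 0.039, 0.13 and 0.29 in day 30 tumours, where all genes had 0.017, -0.015 and 0.011. The comparisons within a table share the WT libraries.

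**Figure D4:**
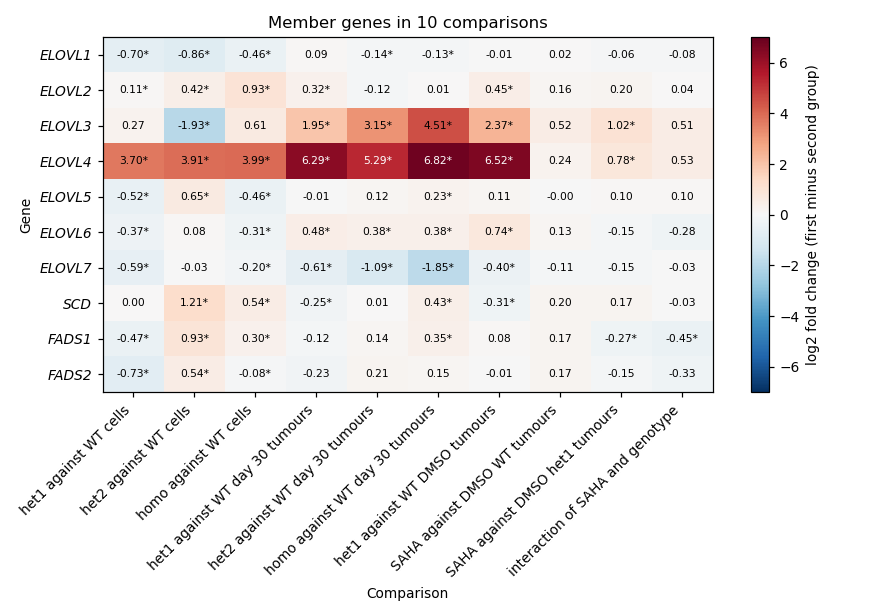
Each cell gives the log2 fold change of 1 member (rows) in 1 comparison (columns, the first group minus the second), with a star for an adjusted p under 0.05. ELOVL4 has the highest value in each of the 7 columns against WT, from 3.70 to 6.82, and the SAHA columns hold few stars.

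Scaled jointly, most members had lower levels in day 30 tumours than in cultures of the same line, and the exceptions lay in the edited lines. The ratio of the tumour mean to the culture mean for SCD was 0.331 in WT, 0.291 in het1, 0.154 in het2 and 0.325 in homo. For ELOVL4 it was 0.117 in WT, 0.754 in het1, 0.332 in het2 and 0.902 in homo. The lowest of these 4 ratios of ELOVL4 was that of WT. ELOVL3 had ratios of 0.645 in WT, 2.15 in het1, 23.6 in het2 and 10.3 in homo. ELOVL1 had ratios above 1 in het1 (1.33) and het2 (1.31), and ELOVL5 in homo (1.06). These ratios compare libraries counted in separate tables and were not tested, and host cells in the tumours were not measured apart.

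In the tumours kept for 4 weeks under vehicle, ELOVL4, ELOVL3, ELOVL6 and ELOVL2 were higher and ELOVL7 was lower in het1 than in WT. ELOVL4 had 0.0546, 0.206, 0.293 and 0.163 CPM in WT and 15.8, 15.6, 19.0 and 16.9 in het1, with a log2FC of 6.52 ± 0.23. ELOVL3 had 0.0955, 0.250, 0.110 and 0.195 CPM in WT and 0.907, 0.561, 0.821 and 1.06 in het1, with a log2FC of 2.37 ± 0.30. Neither gene's groups overlapped. The WT tumours had 4 to 24 counts of ELOVL4 and 7 to 17 of ELOVL3, so both log2FC rest on low counts. The fibroblast sum was lower in het1, at 113 to 130.1 CPM against 244 to 355 in WT, and the adipocyte sum higher, at 66.2 to 96.3 against 48.2 to 58.0; their part was not tested. ELOVL6 had 22.0, 24.5, 23.6 and 20.5 CPM in WT and 35.1, 35.6, 43.3 and 37.3 in het1, again apart. ELOVL2 ran from 15.0 to 27.1 CPM in WT and from 28.5 to 34.9 in het1, also apart, with a log2FC of 0.45 ± 0.14. ELOVL5 was apart as well, at 139 to 146 CPM in WT and 152 to 156 in het1. Its log2FC of 0.11 ± 0.047 was not called. ELOVL7 was lower in het1, at 20.1 ± 1.32 against 26.5 ± 1.87 CPM (SD, n = 4), and apart. SCD had 1215, 1068, 916 and 916 CPM in WT and 799, 713, 959 and 849 in het1, which overlapped, and its log2FC of -0.31 ± 0.10 lost its call without WT DMSO replicate 2 (-0.22) or het1 DMSO replicate 3 (-0.24). Of the members, 4 were called higher and 2 lower, where 27.3% and 26.8% of 22586 genes were.

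SAHA was set against DMSO in each line. In WT tumours ELOVL4 had 0.150, 0.167, 0.208 and 0.342 CPM under SAHA, overlapping the DMSO tumours, and all 10 members overlapped between the groups. Of the members 0 were called higher and 0 lower, where 0% and 0% of all genes were called by edgeR; 1911 genes had an unadjusted p under 0.05, and DESeq2 called 150. In het1 tumours ELOVL4 had 28.4, 25.7, 28.5 and 32.7 CPM under SAHA, all above the DMSO tumours, with a log2FC of 0.78 ± 0.15 against 0.24 ± 0.35 in WT. ELOVL3 had 1.97, 1.53, 1.67 and 1.63 CPM under SAHA in het1, also all above DMSO, with a log2FC of 1.02 ± 0.24 against 0.52 ± 0.34 in WT. The fibroblast sum was also higher under SAHA in het1, at 160.3 to 239 CPM against 113 to 130.1 under DMSO, without overlap. The adipocyte sum had a median of 117 CPM under SAHA and 89.0 under DMSO, with ranges of 94.9 to 122 and 66.2 to 96.3. The part of these markers in the SAHA differences of ELOVL4 and ELOVL3 was not tested. ELOVL5 was also apart between the het1 groups. It had 161, 161, 167 and 171 CPM under SAHA and 152, 152, 155 and 156 under DMSO. Its log2FC of 0.10 ± 0.047 was not called. The share of all genes whose SAHA and DMSO groups were apart was not counted in either line.

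FADS1, the desaturase of the last step before arachidonate, went the other way in het1. It had 341, 339, 426 and 411 CPM under DMSO and 309, 309, 290.0 and 347 under SAHA, with overlap, and a log2FC of -0.27 ± 0.085. In WT it had 357, 391, 347 and 337 CPM under DMSO and 438, 429.6, 346 and 398 under SAHA, with overlap, and a log2FC of 0.17 ± 0.085. In het1, 2 members were called higher and 1 lower, beside 7.68% and 9.15% of all genes. For the difference between the SAHA effects of the lines (het1 minus WT), 0 members were called higher and 1 lower, beside 2.01% and 2.71%. That member was FADS1, at -0.45 ± 0.12. Its call was lost in 11 of 16 fits that left out 1 library of the treated tumours: WT DMSO replicate 2, 7 or 8, WT SAHA replicate 3, 4 or 8, het1 DMSO replicate 4 or 5, or het1 SAHA replicate 1, 2 or 3, with values of -0.45 to -0.39. The call of FADS1 for SAHA in het1 was lost without any 1 of these 5 het1 libraries. For ELOVL4 and ELOVL3 the difference was 0.53 ± 0.38 and 0.51 ± 0.42, and neither was past the threshold, so their SAHA effects are not shown to differ between the lines.

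For the 4 members whose highest group mean was at least 5 CPM and at least 4 times the lowest, the genes with the most similar pattern were sought among 3322 genes that met the same limits. Likeness was Pearson's r of log2(CPM + 0.5) over the 12 group means, given with no test. ELOVL4 was most like TTYH2 (r = 0.988), FAM171A2 (0.976) and DLG4 (0.974), where TTYH2 encodes a chloride channel family protein and DLG4 the postsynaptic scaffold PSD-95. ELOVL3 was most like TUBB4A (0.958), a beta-tubulin, PAIP2B (0.943) and LGMN (0.934), a lysosomal protease. ELOVL7 was most like FGF2 (0.948), a fibroblast growth factor, CAV1 (0.921), the caveolar coat protein, and PHLDA3 (0.90). SCD was most like AC126365.1 (0.993), SCDP1 (0.987) and the mitochondrial gene MT-TT (0.973). SCDP1 is named as a pseudogene of SCD, so the counting may have divided reads of SCD between them.

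The pathway around the members was described with 5 lists of 49 genes, of which 46 were tested in each table. Values of these genes are log2FC ± SE, and "rose" and "fell" stand for calls. Of these, 14 rose and 24 fell in het1 cultures, 26 and 15 in het2, and 14 and 23 in homo, read against the shares of all genes given above. In day 30 tumours 17 rose and 16 fell in het1, 23 and 10 in het2, and 25 and 14 in homo. Counts of the single lists below stand beside the same shares of all genes. Per direction these were 30.8% to 35.4% in culture and 24.4% to 27.7% in day 30 tumours. The medians over the lists were -0.12, 0.14 and -0.15 in culture and 0.0012, 0.14 and 0.20 in day 30 tumours.

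Of the 6 elongation cycle partners, which complete the cycle after each elongase, 2, 4 and 2 rose and 3, 2 and 2 fell in het1, het2 and homo cultures. The dehydratase HACD2 fell in culture, at -0.78 ± 0.030, -0.60 ± 0.029 and -1.10 ± 0.030, and rose in day 30 tumours, at 0.20 ± 0.054, 0.61 ± 0.054 and 0.24 ± 0.054. TECR, the enoyl reductase, fell in culture, at -0.50 ± 0.047, -0.45 ± 0.046 and -0.84 ± 0.048. HACD4 rose in het1 and het2 in culture (1.64 ± 0.077 and 1.28 ± 0.077) and was -0.14 ± 0.087 in homo, where it was not called. In day 30 tumours 2, 3 and 4 of the 6 rose and 3, 0 and 1 fell.

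The other desaturases and electron donors numbered 7 tested in culture and 8 in tumours. In culture 2, 4 and 1 rose and 5, 3 and 5 fell, and in day 30 tumours 4, 5 and 4 rose and 3, 2 and 4 fell. SCD5, the second human stearoyl-CoA desaturase, rose in culture, at 0.48 ± 0.048, 1.85 ± 0.046 and 0.95 ± 0.048 and fell in day 30 tumours, at -1.48 ± 0.12, -0.89 ± 0.12 and -3.02 ± 0.13. Its mean was 32.4 ± 2.26 CPM in WT tumours and 3.99 ± 0.592 in homo tumours (SD, n = 4). CYB5A, the cytochrome b5 that feeds electrons to desaturases, fell in culture, at -2.25 ± 0.047, -0.88 ± 0.043 and -2.08 ± 0.047, and in day 30 tumours, at -1.43 ± 0.12 in het1 and -1.17 ± 0.12 in homo, with -0.11 ± 0.11 in het2, where it was not called. DEGS2, a ceramide hydroxylase, fell in day 30 tumours, at -3.29 ± 0.15, -2.65 ± 0.14 and -3.34 ± 0.15 from 23.9 ± 2.53 CPM in WT. FADS6 was called higher in day 30 tumours but had at most 29 counts in a library there.

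Of the 7 genes of fatty acid synthesis, 1, 3 and 1 rose and 5, 3 and 3 fell in culture, and 1, 3 and 4 rose and 2, 3 and 1 fell in day 30 tumours. ACLY, the ATP-citrate lyase that supplies cytosolic acetyl-CoA, fell in culture from 1127 ± 12.8 CPM in WT to 554 ± 7.94, 589 ± 13.9 and 573 ± 2.42 CPM (SD, n = 3). Its log2FC were -1.02 ± 0.023, -0.94 ± 0.023 and -0.97 ± 0.023 in culture and -1.18 ± 0.069, -0.84 ± 0.068 and -0.96 ± 0.068 in day 30 tumours. ME1, the malic enzyme that supplies NADPH, rose in day 30 tumours, at 0.24 ± 0.074, 0.66 ± 0.074 and 0.77 ± 0.074, and in culture it fell in het1 and homo (-0.43 ± 0.027 and -0.71 ± 0.027) and rose in het2 (0.13 ± 0.027).

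The lipogenic regulators, 13 of 14 tested, gave 2, 5 and 0 rises and 9, 6 and 11 falls in culture, and 5, 8 and 8 rises and 2, 4 and 4 falls in day 30 tumours. SREBF1, whose product activates SCD, FADS1 and FADS2, rose in day 30 tumours of het2 and homo (0.63 ± 0.077 and 0.94 ± 0.078) and was 0.16 ± 0.077 in het1, where it was not called. In culture it was -0.47 ± 0.037 in het1, 0.097 ± 0.037 in het2 and -0.24 ± 0.037 in homo, all called. PPARG, the adipogenic receptor, fell in culture, at -0.31 ± 0.043, -0.32 ± 0.042 and -1.33 ± 0.046 and rose in day 30 tumours, at 1.23 ± 0.064, 0.33 ± 0.064 and 0.60 ± 0.064. PPARA, the regulator of fatty acid oxidation, fell in both, at -0.70 ± 0.080, -0.96 ± 0.081 and -0.31 ± 0.079 in culture and -1.58 ± 0.069, -0.68 ± 0.067 and -1.11 ± 0.068 in tumours.

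Among acyl-CoA synthetases and users of acyl chains, 13 genes tested in culture gave 7, 10 and 10 rises and 2, 1 and 2 falls, and 12 tested in day 30 tumours 5, 4 and 5 rises and 6, 1 and 4 falls. ACSL4, the synthetase that prefers arachidonate, rose in het2 and homo cultures (1.47 ± 0.034 and 0.57 ± 0.034, with 0.037 ± 0.035 in het1, not called) and fell in het1 and homo day 30 tumours (-0.88 ± 0.11 and -0.47 ± 0.10, with 0.21 ± 0.10 in het2, not called). ACSL5 had at most 14 counts per library in culture and 14.4 CPM in WT tumours, from which it fell, at -4.61 ± 0.22, -1.31 ± 0.18 and -6.59 ± 0.26. ACSL6, at 0 to 2 counts in WT cultures and 33 to 88 in edited cultures, rose in the 3 edited lines, and a fitted fold against so few counts is no bound. CERS6, a ceramide synthase, rose in day 30 tumours, at 0.46 ± 0.052, 0.67 ± 0.052 and 0.72 ± 0.052.

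In treated tumours the 46 genes gave 20 rises and 13 falls in het1 against WT under DMSO, 0 and 0 calls for SAHA in WT, and 8 rises and 5 falls for SAHA in het1. The shares of all genes called higher and lower were 27.3% and 26.8%, 0% and 0%, and 7.68% and 9.15% in the same order. SCD5 and FADS3 rose with SAHA in het1, at 0.56 ± 0.082 and 0.46 ± 0.083, and ME1 fell, at -0.33 ± 0.075. The difference between the lines' SAHA effects was past the threshold for these 3 genes too, and for ACSL1 and FADS6, of which FADS6 had few counts. That gave 4 rises and 1 fall, beside 2.01% and 2.71% of all genes. SCD5, FADS3 and ME1 were at 0.55 ± 0.11, 0.50 ± 0.12 and -0.39 ± 0.11.

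**Figure D5:**
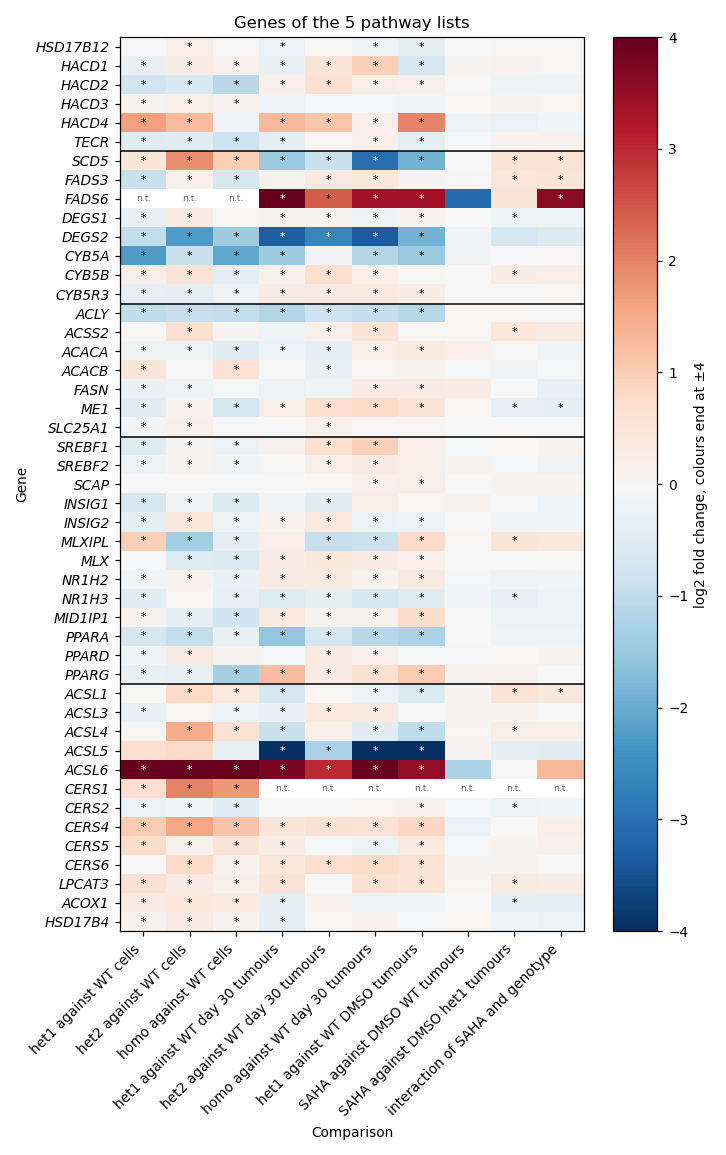
Rows are the pathway genes tested in at least 1 table, in 5 blocks by list (elongation cycle partners, other desaturases and electron donors, fatty acid synthesis, lipogenic regulators, acyl-CoA synthetases and acyl chain users), columns are the 10 comparisons, colour is the log2 fold change with colours ending at 4 in size, stars mark an adjusted p under 0.05 and n.t. a gene not tested. The ACLY row is below 0 in all 7 columns against WT, which share WT libraries, and SCD5 is above 0 in the 3 columns of cultures and below 0 in the 4 columns of tumours against WT.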

How the data were processed

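The deposited values are whole-number read counts per gene, in 3 tables for cultured cells (12 libraries), day 30 tumours (16) and treated tumours (16). Per the labels, the extraction used QIAGEN's RNeasy Plus Mini columns and the libraries KAPA's stranded chemistry for polyadenylated RNA. Reads went through bcl2fastq, HISAT2 and HTSeq on hg38, per the submitters' processing notes. Not given in the sources used here are their versions, the annotation release, the strand setting and the treatment of host reads. All 58721 identifiers matched GENCODE release 29, which gave symbols and exon lengths.

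Groups were taken from the labels, and no column was left unmapped. The 10 genes, the 5 pathway lists and the marker lists were chosen with earlier results of these data known. The rule for other names took, per list and comparison, up to 2 genes called higher and 2 called lower with the smallest p, the 3 genes most similar to a member, EP300, and 4 neighbours of the FADS genes; a gene so named is given in all lines.

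Each table was fitted separately with edgeR 4.0.16 (R 4.3.3; TMM, filterByExpr, robust quasi-likelihood test, all groups in 1 fit) and p-values were Benjamini-Hochberg adjusted over all genes tested, with calls under 0.05. Members' log2 fold changes are given without p-values. Levels across tables were compared only after joint TMM scaling of all 44 libraries. The fit was tested on simulated data. Alternatives tried were DESeq2 1.42.0, RLE scaling, fitting all genes or those with a mean of at least 1 CPM, a block for the replicate number, a fit of the compared groups alone, and leaving out each library. None of the 60 within-group pairs held identical counts. Promoter windows are from RefSeq on GRCh38.p14, with windows on chromosome 8 left out of the motif shares.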

Additional observations from a re-analysis of the deposited data

Results flagged for a closer look

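In the following results a library stood far from the rest of its group, or effects under the same contrast differed. ELOVL1 had a highest library well above the other 3 in homo day 30 tumours (replicate 5, 60.8 CPM) and in het1 DMSO tumours (replicate 5, 70.2 CPM). These were 2 of 80 groups of 4 libraries examined over the 10 genes, and chance marks about 1 group in 20.

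The SAHA effect on FADS1 was lower in het1 than in WT by a tested difference of -0.45 on the log2 scale. The call depended on single libraries, as described above.

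Over the 10 members and 3 edited lines, 4 pairs of comparisons switched direction. In these, every library of the edited line lay below all WT libraries in culture and above all WT libraries in day 30 tumours. The share of all genes with such a switch was not counted, so nothing is read from the number. Per direction, 30.8% to 35.4% of all genes were called in culture and 24.4% to 27.7% in day 30 tumours. The difference between the settings was not tested. ELOVL6 in het1 had log2 fold changes of -0.37 in culture and 0.48 in tumours. ELOVL6 in homo had -0.31 and 0.38. ELOVL5 in homo had -0.46 and 0.23. ELOVL3 in het2 had -1.93 and 3.15, from 8 to 11 counts per library in culture.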

How the results depend on the processing

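Of 2073 alternative log2 fold changes of the members, 2055 moved by less than the SD between libraries, 18 moved by more and 0 called values changed sign. Of 416 alternative counts of called members, 371 stayed within 1.5 times the reported count. With genes of a mean of at least 1 CPM only, 1 member was called lower in het2 cultures in place of 2, since ELOVL3 was not tested there. With no filter, 1 was called lower in het2 day 30 tumours and 1 in homo day 30 tumours, and 0 were called lower for SAHA in het1 and for the difference between SAHA effects. With only the groups compared, 1 was called lower in het2 day 30 tumours. For these the cause was not tested.

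With each library left out in turn, the members called higher ran from 1 to 2 in het1 cultures and from 3 to 5 in het2 day 30 tumours. Those called lower ran from 2 to 4 in het1 day 30 tumours, from 1 to 2 in het2 and in homo day 30 tumours, from 1 to 2 in het1 DMSO tumours, and from 0 to 1 for SAHA in het1 and for the difference. ELOVL2 lost its call in het1 cultures without WT replicate 2. SCD lost its call in het1 DMSO tumours without WT DMSO replicate 2 or het1 DMSO replicate 3. ELOVL1, at log2 fold changes near -0.1, lost its call in het2 and homo day 30 tumours under several omissions. FADS1 lost its SAHA call in het1 without het1 DMSO replicate 4 or 5, or het1 SAHA replicate 1, 2 or 3.

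Same-numbered libraries had residual correlations of -0.11 to 0.07 in cells, -0.19 to 0.17 in day 30 tumours and -0.15 to 0.13 in treated tumours. The labels do not say whether the number pairs libraries, and low correlations cannot decide it. With the replicate block, 1 member was called higher and 0 lower for SAHA in het1, and 0 lower for the difference. With the replicate block the het1 DMSO log2 fold changes were 7.15 for ELOVL4 and 1.88 for ELOVL3, and FADS1 had -0.24 for the difference. Depth limits ELOVL3 and the WT level of ELOVL4. ELOVL3 had 8 to 11 counts per library in het2 cultures and 7 to 17 in WT DMSO tumours. ELOVL4 had 11 to 37 counts in WT day 30 tumours and 4 to 24 in WT DMSO tumours.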

Other observations

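MYRF, TMEM258, FEN1 and FADS3 neighbour FADS1 and FADS2 on chromosome 11. MYRF, a membrane-bound transcription factor known from myelination, was lower in every edited line. In culture it had 132 ± 1.77 CPM in WT, 15.6 ± 0.896 in het1, 11.3 ± 0.364 in het2 and 13.5 ± 1.17 in homo (SD, n = 3). Its log2 fold changes against WT were -3.08 ± 0.048, -3.55 ± 0.049 and -3.28 ± 0.049 in culture and -1.70 ± 0.083, -1.18 ± 0.081 and -1.91 ± 0.083 in day 30 tumours, all called by edgeR.

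FEN1, the flap endonuclease that shares 49 exon bases with FADS2, had 146 ± 3.12 CPM in WT cultures and 96.1 ± 2.86, 105 ± 1.51 and 107 ± 2.14 in het1, het2 and homo. TMEM258, a subunit of the oligosaccharyltransferase, had 28.1 ± 2.27 CPM in WT cultures and 31.4 ± 1.53, 30.3 ± 1.29 and 28.4 ± 2.00 in the edited lines. The log2 fold changes in het2 cultures were -0.47 ± 0.029 for FEN1 and 0.11 ± 0.054 for TMEM258, against 0.93 ± 0.029 for FADS1 and 0.54 ± 0.028 for FADS2.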
